A study of Mus musculus with 6 samples.

Results

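The constitutive proteasome subunit genes were taken as the array probes, other than control spots, whose gene name begins with Psma, Psmb, Psmc or Psmd followed by a number, without the immunoproteasome genes Psmb8, Psmb9 and Psmb10. The rule found 45 of 55681 probes, for 37 of the 22221 genes that could be named. Of these, 31 code for subunits of the constitutive proteasome: 7 for the alpha ring, 7 for the beta ring, 9 for the base and 8 for the lid. The other 6 genes match the name pattern but are not constitutive subunits, and they are described apart. Psma8 codes for a testis form of an alpha subunit, Psmb11 for a thymus form of a beta subunit, Psmd5, Psmd9 and Psmd10 for chaperones of base assembly, and Psmc3ip for a protein of meiotic recombination.

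RNA was measured on 6 one-colour Agilent arrays of G1E-ER-GATA-1 cells. These are mouse red-cell precursors without a working Gata1 gene, to which GATA-1 joined to the ligand-binding part of the estrogen receptor was added, so that estradiol starts erythroid maturation. The 3 control samples received a non-targeting siRNA and the 3 SetD8 samples an siRNA against SetD8 (current gene symbol Kmt5a), the enzyme that places a single methyl group on lysine 20 of histone H4. All 6 samples were transfected at 0 h and again at 24 h, given β-estradiol from 24 h, and harvested at 48 h. Whether replicates are separate cultures is not stated in the labels. The p-values below therefore measure array-to-array spread, possibly technical, and the small number of arrays limits the precision.

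The proteasome degrades proteins tagged with ubiquitin. Its core particle is a stack of rings: the outer alpha rings form the gate, and the inner beta rings hold the cutting sites. The regulatory particle caps the core, with a base whose ATPases unfold the substrate and thread it inward and a lid that removes the ubiquitin chain. Maturing erythroid cells clear much of their protein content, and the ubiquitin and proteasome system takes part in this.

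The sequence just before the transcription start was compared between the rings and the regulatory particle, because these genes are known for expression in concert. RefSeq promoter sequences (GRCm38.p6, 250 bases before to 50 bases after a start) were found for 30 of the 37 genes and for 25 of the 31 subunit genes, which have 27 promoters. Psmb1, Psmb2, Psmb7, Psmc3, Psmd3 and Psmd7 had no entry. Both strands were searched for 3 motifs, chosen after the expression values had been seen: TGACNNNGC, the core bound by Nrf-type factors with small Maf partners; CCAAT, the CCAAT box; and CCGGAAG, a core bound by ETS-family factors. No motif's letters contain another's.

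CCGGAAG was in 10 of 15 promoters of base and lid genes and in 1 of 12 ring promoters, against 15.7% of the 14140 promoters of genes tested here and 8.86% of all 32851 promoters. The 10 promoters belong to Psmc1, Psmc2 (both of its promoters), Psmc6, Psmd2, Psmd4, Psmd6, Psmd11, Psmd12 and Psmd13, and the ring promoter to Psma6. CCAAT was in 6 of 12 ring promoters, 5 of them of alpha genes, and in 4 of 15 of the base and lid, against 38.2% of promoters of tested genes and 37.4% of all promoters. TGACNNNGC was in 2 of 12 ring promoters (Psmb5 and Psmb6) and 2 of 15 of the base and lid (Psmc6 and Psmd12), close to the 13.7% of promoters of tested genes and 12.4% of all. These are matches of letters and show no binding.

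The 250 bases before the start are given, with motif matches in capitals, for the 3 subunit genes with the smallest unadjusted p-values below, Psma3 of the alpha ring and Psmd11 and Psmd12 of the lid, and for Psmb5, a catalytic beta subunit with a TGACNNNGC match. They lie at chr12:70974373-70974622 (plus strand), chr11:80428365-80428614 (plus strand), chr11:107479278-107479527 (plus strand) and chr14:54617996-54618245 (minus strand). In Psmd11 and Psmd12 the CCGGAAG match lies on the minus strand and is read here as CTTCCGG, 11 to 5 and 17 to 11 bases before the start.
Psma3: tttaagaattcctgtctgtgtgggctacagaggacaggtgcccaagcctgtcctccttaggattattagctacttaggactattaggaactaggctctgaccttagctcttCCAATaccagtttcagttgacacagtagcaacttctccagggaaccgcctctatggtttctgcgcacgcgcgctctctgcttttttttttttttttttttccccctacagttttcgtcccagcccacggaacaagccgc
Psmd11: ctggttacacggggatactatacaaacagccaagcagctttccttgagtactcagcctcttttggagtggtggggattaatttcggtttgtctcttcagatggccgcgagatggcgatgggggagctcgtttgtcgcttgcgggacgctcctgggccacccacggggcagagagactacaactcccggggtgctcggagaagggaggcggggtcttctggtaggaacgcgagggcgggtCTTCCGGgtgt
Psmd12: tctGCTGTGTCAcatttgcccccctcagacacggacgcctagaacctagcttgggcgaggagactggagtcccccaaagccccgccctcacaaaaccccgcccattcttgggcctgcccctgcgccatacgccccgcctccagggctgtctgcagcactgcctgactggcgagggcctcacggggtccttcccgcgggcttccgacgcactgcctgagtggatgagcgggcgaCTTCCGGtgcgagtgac
Psmb5: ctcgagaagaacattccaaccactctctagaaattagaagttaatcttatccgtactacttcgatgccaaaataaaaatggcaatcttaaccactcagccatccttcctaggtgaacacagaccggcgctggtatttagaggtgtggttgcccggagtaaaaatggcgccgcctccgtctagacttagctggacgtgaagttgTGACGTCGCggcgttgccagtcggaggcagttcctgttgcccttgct

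The targeted gene was examined first. Its values are log2 processed signals less the array's 75th percentile, the main scaling. The Setd8 probe at chr5:124911883-124911942 (mm9) read 4.34, 4.95 and 3.14 on the control arrays and 2.07, 1.82 and 1.83 on the SetD8 arrays, a difference of -2.24 with no overlap (adjusted p = 0.682; exact two-sided permutation p = 0.1, the smallest that 3 against 3 arrays can give). A second reading of the same arrays, normexp background correction with quantile normalization, had a smaller spread, and the difference was -2.07 (adjusted p = 0.00846). The second Setd8 probe differed by -1.37 and -1.13 in these readings.

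The share of probes well above background ran from 40.2% (control 2) to 82.5% (control 3) on the control arrays and from 60.3% to 68.6% on the SetD8 arrays, and no spot was saturated. The median residual standard deviation of a gene was 0.52 at the 75th percentile scaling and 0.21 after quantile normalization, so values by array below are from the second reading unless stated. Control 1, SetD8 1 and SetD8 2 shared a slide, control 3 and SetD8 3 shared another, and control 2 was alone on a slide scanned on another day. Of 10 listed erythroid genes, 8 were matched on the array and all 8 were well above background on all 6 arrays. Of 5 listed megakaryocyte genes, 3 were well above background on all 6 arrays (Pf4, Gp9 and Itga2b), Gp1bb on 5 and Ppbp on none. Pf4 read 12.27 to 13.75 in controls and 12.99 to 14.28 in SetD8 samples. The mean level of the erythroid markers was 12.64 to 12.76 in controls and 12.42 to 12.73 in SetD8 samples. Slc4a1 had the largest difference of the 8 erythroid genes (-1.19, adjusted p = 0.194), and Tfrc stood at -0.22 (adjusted p = 0.553). These were the 2 of 8 without overlap, where 9.96% of all genes were wholly lower. For the 6 granulocyte and macrophage markers the mean level was 7.12 to 7.28 in controls and 7.35 to 7.47 in SetD8 samples. Of these 6, 4 were well above background on all arrays, Ly6g on 3 and Mpo on 1. Among these markers Cd68 was called higher (0.73, adjusted p = 0.0342), and Csf1r stood at 0.97 (adjusted p = 0.25) without overlap. Elane stood at 0.26, also apart, whereas Adgre1 was at -0.11 with overlap. With the slide as a block in the limma fit, Cd68 was not called (0.74, adjusted p = 0.131). The mean levels of the megakaryocyte, mast cell, lymphoid, and stromal and endothelial lists overlapped between groups. Of their tested genes only Itga2b was apart, 1 of 4 in the megakaryocyte list. It was higher by 0.48 (adjusted p = 0.316), where 13.7% of all genes were wholly higher. The part of these marker shifts in the values below was not tested.

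Of the 37 genes, 36 entered the tests, and 43 of the 45 probes were well above background on all 6 arrays. No proteasome subunit gene passed an adjusted p of 0.05 with limma in either reading; with an intensity trend in the moderation of the quantile reading, Psma3 and Psmd12 were called lower (adjusted p = 0.0294 and 0.0352), in a fit that called 2.22% of all genes lower and 4.32% higher. With array weights, whose estimation stopped before converging, the quantile reading called 7 members lower and 1 higher, against 13.2% and 13.7% of all genes. The same weights at the main scaling called 20 members lower and 0 higher, against 25.6% and 16.5% of all genes. In the main scaling, none of all 14420 genes tested did (0% higher and 0% lower), and the smallest adjusted p of a member was 0.951. After quantile normalization 0 of 36 members were called, against 1.46% of all genes called higher and 0.236% called lower; the smallest adjusted p of a member was 0.184. For the 31 subunits the 95% confidence intervals in that reading lay between -0.89 and 0.41 on the log2 scale, so a change beyond 1.86-fold lower or 1.33-fold higher was outside every interval. At the main scaling the intervals were wider, from -1.72 to 0.97, or 3.28-fold lower to 1.97-fold higher. In bulk RNA, fewer cells of a type and less RNA per cell cannot be told apart.

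At an unadjusted p of 0.05, the quantile reading had 3 members lower (Psma3, Psmd11 and Psmd12) and 0 higher, where 6.4% of all genes were lower and 9.36% higher. The main scaling gave 0 and 0 members, against 0.541% of all genes lower and 2.55% higher. The SetD8 values lay wholly below the control values for 9 of 36 members after quantile normalization, and wholly above for 0, where the shares of all genes were 9.96% lower and 13.7% higher. The 9 were Psma1, Psma3, Psma5, Psma7, Psmd8, Psmd11, Psmd12, Psmd14 and Psmc3ip. At the 75th percentile scaling the groups overlapped for all 36 members, against 2.13% of all genes wholly lower and 5.44% wholly higher.

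**Figure D1:**
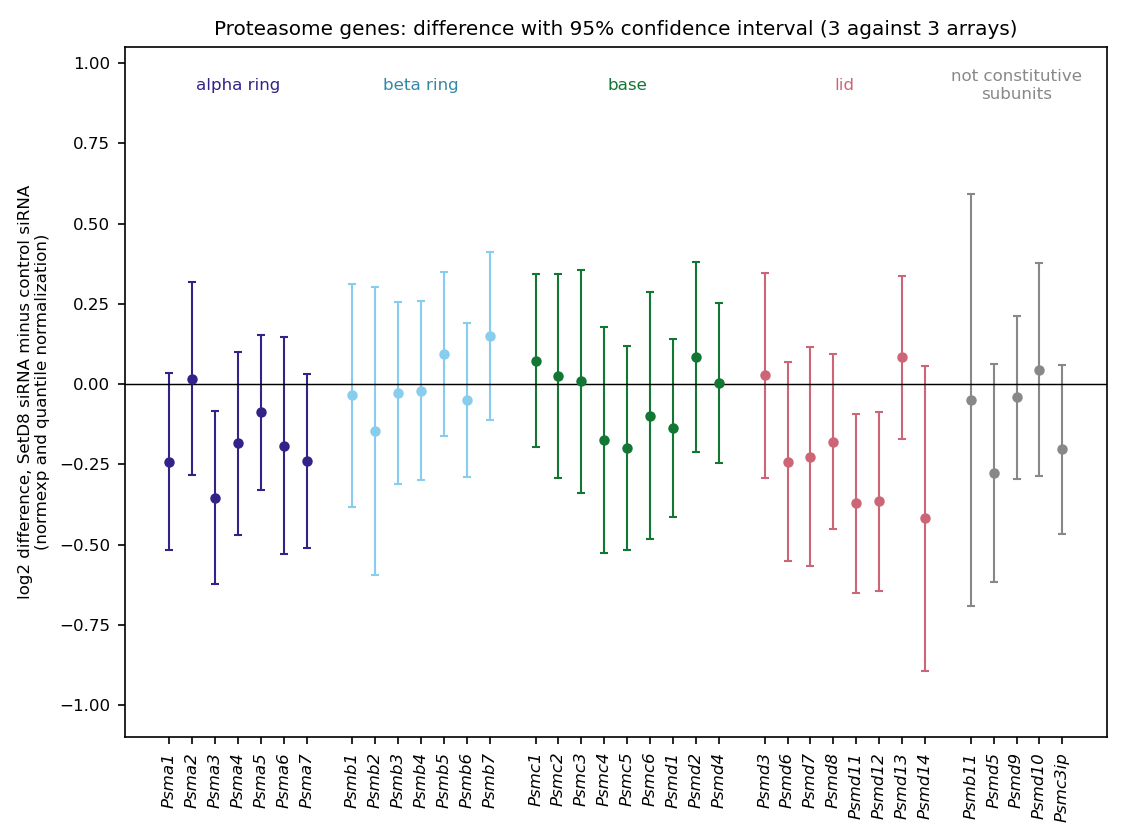
Log2 difference (SetD8 siRNA minus control siRNA, y axis) of each tested gene after normexp and quantile normalization, grouped by sub-complex; bars are 95% confidence intervals from limma with 3 arrays a group. The intervals of Psma3, Psmd11 and Psmd12 lie below 0, no gene passed the adjusted threshold, and beta ring and base genes lie on both sides of 0.

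The rings did not separate from the base and lid. The median difference of the 14 ring genes was -0.28 at the 75th percentile scaling and -0.07 after quantile normalization, and that of the 17 base and lid genes -0.27 and -0.14. The median over all genes was 0.04 and 0.03. In the quantile reading the ring median was -0.11 without SetD8 1, and the base and lid median -0.08 without SetD8 2. Within each array, the mean of the ring genes less the mean of the base and lid genes was 0.69, 0.65 and 0.70 on the controls and 0.72, 0.63 and 0.77 on the SetD8 arrays after quantile normalization. These values overlapped, and the group means differed by 0.03, less than the standard deviation of the SetD8 arrays (0.07).

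Each particle was itself divided, a split that was described after the values had been seen. After quantile normalization the alpha ring had a median of -0.19 and the beta ring -0.03, and the lid had -0.23 and the base 0.00. Differences were negative for 6 of 7 alpha genes, 6 of 8 lid genes, 5 of 7 beta genes and 4 of 9 base genes, where 45% of all genes were negative. Among the genes whose groups did not overlap were 4 of 7 alpha and 4 of 8 lid genes, and 0 of 7 beta and 0 of 9 base genes, against 9.96% of all genes wholly lower and 13.7% wholly higher. With so few genes a count of 0 is near that share.

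The same division was also described by array. These contrasts use the values from which the division was made, so they are no separate support for it. The mean of alpha less the mean of beta genes was -0.16, -0.21 and -0.16 on the controls and -0.35, -0.45 and -0.26 on the SetD8 arrays, without overlap, a difference of -0.18 between the group means. For lid less base the values were -1.21, -1.22 and -1.18 on the controls and -1.29, -1.44 and -1.37 on the SetD8 arrays, again without overlap, a difference of -0.17. These contrasts do not move when a whole array is shifted, and at the 75th percentile scaling they were -0.22 and -0.17. They were not tested, since the sets were chosen with results known.

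**Figure D2:**
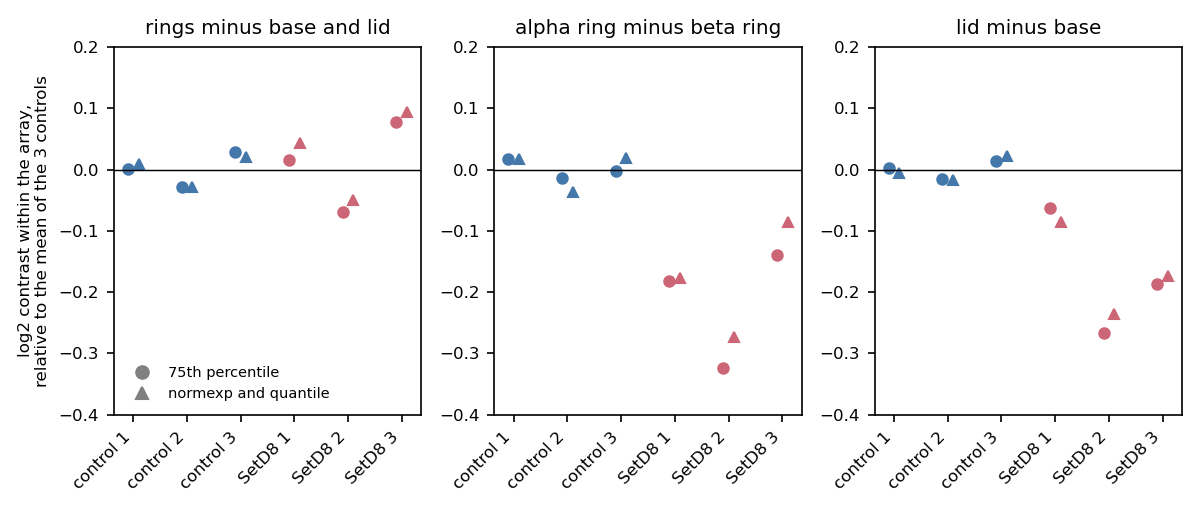
Contrasts of mean log2 signal within each array (y axis, relative to the mean of the 3 controls) for the rings against base and lid, alpha against beta ring, and lid against base; circles are the 75th percentile scaling and triangles normexp and quantile normalization, blue control and red SetD8 arrays. The rings against base and lid overlap between groups, and the other contrasts are lower on all 3 SetD8 arrays than on all 3 controls in both readings.

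At the 75th percentile scaling all 31 subunit genes had negative differences, where 46.8% of all genes did, with medians of -0.45 for alpha, -0.23 for beta, -0.21 for base and -0.43 for lid. The mean level of the 31 genes was 6.12, 6.68 and 5.23 on the controls and 5.69, 5.65 and 5.76 on the SetD8 arrays. The controls thus spread widely (SD 0.73, against 0.06 for the SetD8 arrays), with control 2 highest and control 3 lowest, and the SetD8 arrays lay between them. Without control 2 the medians were 0.02 for the rings and 0.05 for the base and lid, and without control 3 they were -0.67 and -0.71. With the slide as a block they were -0.02 and 0.01, and within slide 3, which has 1 array a group, 0.56 and 0.54.

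**Figure D3:**
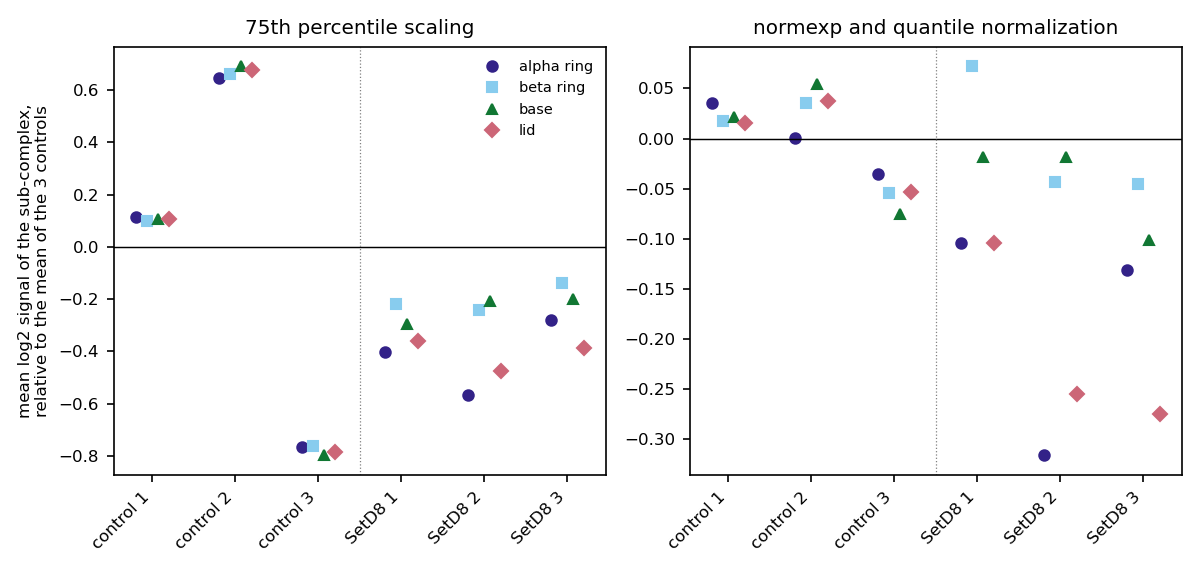
Mean log2 signal of each sub-complex by array (y axis, relative to the mean of the 3 controls), at the 75th percentile scaling (left) and after normexp and quantile normalization (right), with different y ranges. At the left the 4 sub-complexes move together with the array; at the right alpha ring and lid lie lowest on the SetD8 arrays.

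The direction depended on the scaling for the beta ring and base. Over 6 scalings of all 6 arrays the alpha and lid medians were negative, whereas under quantile normalization of the processed signal the beta and base medians were 0.01 and 0.03. Median scaling moved the median of all genes to -0.45 and the percentile over detected probes moved it to 0.17, so differences under those scalings are relative to these shifts.

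Among the alpha ring genes, which shape the gate of the core, Psma3 had the smallest p. It read 13.88, 13.91 and 13.88 on the controls and 13.54, 13.41 and 13.66 on the SetD8 arrays. All SetD8 values lay below all control values, and the difference was -0.35 (SE 0.11, 95% interval -0.62 to -0.08, adjusted p = 0.191). Its probe lies at chr12:72095431-72095490 (mm9). The difference was -0.33 with the slide as a block, -0.40 within slide 1 and -0.22 within slide 3.

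Psma1 read 13.26, 13.22 and 13.11 on the controls and 13.02, 12.83 and 13.02 on the SetD8 arrays, a difference of -0.24 (adjusted p = 0.384). Psma7 read 14.57, 14.55 and 14.48 against 14.40, 14.16 and 14.31, also -0.24 (adjusted p = 0.378). Neither gene's groups overlapped, and SetD8 2 was the lowest array for both. Of the other alpha genes Psma5 had groups that did not overlap (-0.09), Psma4 and Psma6 stood at -0.18 and -0.19, and Psma2 was at 0.02.

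Of the beta ring genes, Psmb5 codes for the subunit with chymotrypsin-like activity and Psmb7 for the one with trypsin-like activity. Psmb7 read 12.41, 12.56 and 12.46 on the controls and 12.71, 12.54 and 12.63 on the SetD8 arrays, a difference of 0.15 (SE 0.11, adjusted p = 0.603). Psmb5 read 15.54, 15.50 and 15.43 against 15.56, 15.67 and 15.52, a difference of 0.09 (adjusted p = 0.759), and its second probe gave 0.07. Control and SetD8 values of both genes overlapped.

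Psmb2, a structural beta subunit, read 10.96, 11.13 and 10.82 on the controls and 11.16, 10.55 and 10.76 on the SetD8 arrays. Its SetD8 arrays held both the highest and the lowest value, and the difference of -0.15 had an SE of 0.19 (adjusted p = 0.788). Psmb6, the remaining catalytic subunit, differed by -0.05, and Psmb1, Psmb3 and Psmb4 by -0.03, -0.03 and -0.02.

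In the base, the ATPases Psmc5 and Psmc4 and the scaffold subunit Psmd1 had the smallest p-values. Psmc5 read 11.75, 12.05 and 11.89 on the controls and 11.64, 11.85 and 11.61 on the SetD8 arrays, a difference of -0.20 (adjusted p = 0.563). Psmd1 read 12.94, 13.02 and 12.89 against 12.80, 12.70 and 12.94 (-0.14, adjusted p = 0.662). Groups overlapped for both.

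Psmc4 read 12.78, 12.82 and 12.69 on the controls and 12.59, 12.83 and 12.36 on the SetD8 arrays, a difference of -0.17 (adjusted p = 0.664), with SetD8 2 as high as any control. The ATPase Psmc6 differed by -0.10, the scaffold subunit Psmd2 by 0.08 and the ubiquitin receptor Psmd4 by 0.00.

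For the ATPases Psmc1, Psmc2 and Psmc3 the probes of a gene differed in sign. Psmc1 read 15.04, 14.85 and 15.06 on the controls and 15.02, 15.07 and 15.09 on the SetD8 arrays (0.07), and its other probe gave -0.12. Psmc2 read 14.03, 14.12 and 13.82 against 14.10, 14.07 and 13.87 (0.03), with -0.00 from a probe that overlaps the first on the genome. Psmc3 read 15.97, 16.10 and 15.71 against 16.05, 15.96 and 15.79 (0.01), with -0.03 from its other probe. All of these differences were smaller than the standard errors of 0.11 to 0.14 or close to them, and all groups overlapped.

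**Figure D4:**
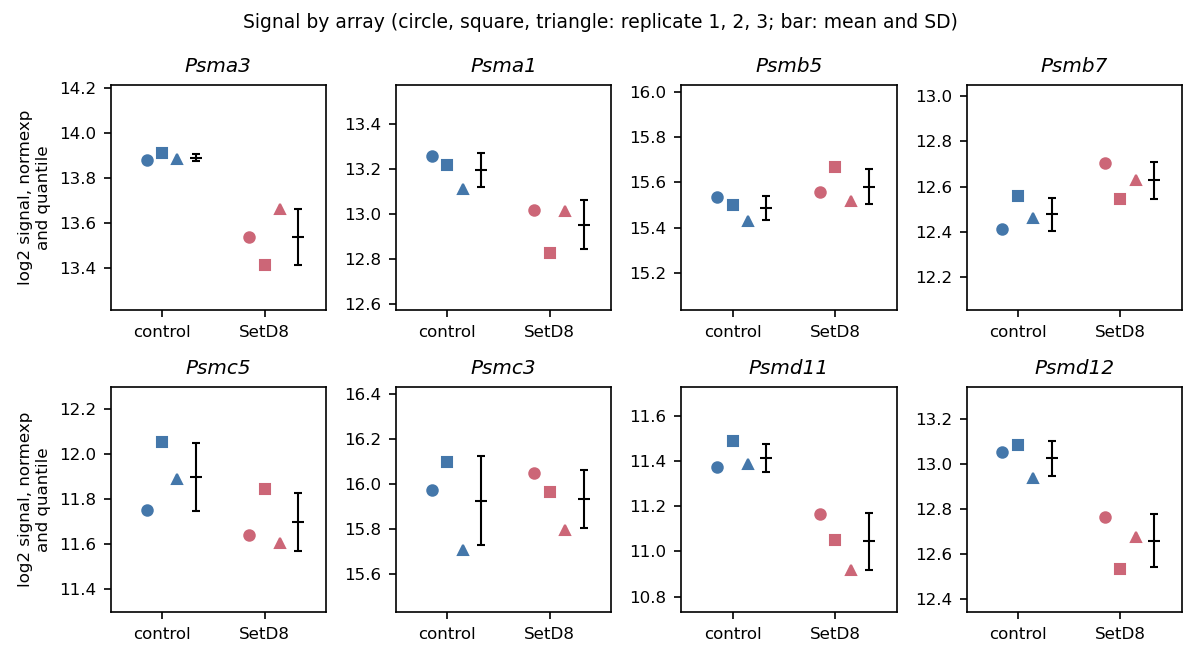
Log2 signal after normexp and quantile normalization (y axis, each panel spanning the same range) of 8 subunit genes by group; symbols are the 3 replicates and bars the mean and SD. The groups do not overlap for Psma3, Psma1, Psmd11 and Psmd12 and overlap for Psmb5, Psmb7, Psmc5 and Psmc3.

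The lid held the other genes with small p-values. Psmd11, a scaffold subunit of the lid, read 11.37, 11.49 and 11.39 on the controls and 11.17, 11.05 and 10.92 on the SetD8 arrays. The groups did not overlap, and the difference was -0.37 (SE 0.12, 95% interval -0.65 to -0.09, adjusted p = 0.184). It was -0.35 with the slide as a block, -0.26 within slide 1 and -0.47 within slide 3. Its probe spans chr11:80283406-80283920 (mm9, plus strand), longer than its 60 bases, so it crosses a splice junction.

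Psmd12, likewise a lid scaffold subunit, read 13.05, 13.08 and 12.94 on the controls and 12.77, 12.54 and 12.68 on the SetD8 arrays, without overlap. The difference was -0.36 (SE 0.12, adjusted p = 0.19), with -0.34 under the slide block, -0.40 within slide 1 and -0.26 within slide 3. A second Psmd12 probe, which spans chr11:107347092-107347728 (mm9, plus strand) and crosses a junction, read 9.40, 9.34 and 9.17 against 8.91, 8.81 and 8.92. That probe's difference was -0.42, in the same direction as the first. The junction probes of both genes are given because they can pair fully only with spliced RNA. The Psmd11 probe is the one tested, whereas the tested Psmd12 value comes from its other, brighter probe at chr11:107358963-107359022 (mm9).
Psmd11 probe: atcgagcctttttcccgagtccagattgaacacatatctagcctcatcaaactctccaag
Psmd12 second probe: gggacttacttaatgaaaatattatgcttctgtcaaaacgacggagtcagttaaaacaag

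Psmd14, the enzyme of the lid that cuts off ubiquitin chains, read 11.12, 11.05 and 11.06 on the controls and 10.97, 10.24 and 10.77 on the SetD8 arrays. The groups did not overlap, but SetD8 2 lay far below the rest. The difference was -0.42 (SE 0.20, adjusted p = 0.381) and -0.21 without SetD8 2. Psmd8 had groups without overlap (-0.18), Psmd6 and Psmd7 stood at -0.24 and -0.23, and Psmd3 and Psmd13 at 0.03 and 0.08.

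Of the members that are not constitutive subunits, Psmc3ip read 9.14, 9.17 and 9.19 on the controls and 8.98, 9.06 and 8.85 on the SetD8 arrays (-0.20, adjusted p = 0.451), without overlap. The base assembly chaperone Psmd5 read 10.528, 10.703 and 10.395 against 10.431, 10.260 and 10.103 (-0.28, adjusted p = 0.42). Psmd9 read 10.76, 10.88 and 10.82 against 10.86, 10.76 and 10.71 (-0.04). Both chaperones' groups overlapped.

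Psmd10 read 10.55, 10.49 and 10.54 on the controls and 10.68, 10.33 and 10.71 on the SetD8 arrays (0.05), and its other probe gave -0.11. Psmb11 was well above background on 2 of 3 control and 3 of 3 SetD8 arrays and read 7.25, 6.47 and 7.43 against 7.03, 7.19 and 6.78, with overlap. Its difference was -0.05 in this reading and 0.77 at the 75th percentile scaling. At the latter control 2 read -5.26, against -1.14 on control 1 and -0.46 on control 3. Psmb11 entered the tests only through the SetD8 arrays, so these values are a description. Psma8 was well above background on 1 of 3 control and 2 of 3 SetD8 arrays and did not enter the tests.

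Outside the rule, 43 genes of the proteasome and ubiquitin pathway were listed, and 42 entered the tests (Paaf1 did not). After quantile normalization 1 was called higher and 0 lower, and at the 75th percentile scaling none was; at an unadjusted p of 0.05 there were 4 higher and 4 lower in the first, where the shares of all genes were 9.36% and 6.4%, and 0 and 0 in the second. The called gene was Psmb9, the immunoproteasome counterpart of the catalytic subunit Psmb6. It read 8.79, 8.92 and 8.74 on the controls and 9.62, 9.70 and 9.55 on the SetD8 arrays, without overlap, and rose by 0.81 (SE 0.11, adjusted p = 0.0299). Without overlap, 7 of the 42 were higher and 7 lower, against 13.7% and 9.96% of all genes, so these counts are near the shares of all genes.

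The Psmb9 call was lost in 5 of the 6 fits that left out an array (adjusted p 0.0549 to 0.197), and remained without control 3. It was also lost with the slide as a block (0.85, adjusted p = 0.1) and the replicate block (0.81, adjusted p = 0.153). Of the 6 scalings only the quantile reading called Psmb9, with adjusted p from 0.057 to 0.991 at the others. The difference was 0.87 within slide 1 and 0.81 within slide 3. Its second probe, well above background on 1 of the 6 arrays, gave -0.08. Psmb10 read 11.89, 12.08 and 11.70 on the controls and 12.09, 12.26 and 12.10 on the SetD8 arrays (0.26, adjusted p = 0.435), its groups just apart. Psmb8 was well above background on 1 of 3 control and 3 of 3 SetD8 arrays and read 6.05, 5.92 and 6.50 against 6.42, 6.64 and 6.67, with overlap. Its difference was 0.42 in this reading and 1.59 at the main scaling. Psmb8 entered only through the SetD8 arrays, where it was higher, so these values are a description.

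The subunits of the activator that caps the core in place of the regulatory particle were Psme1 and Psme2. Psme1 read 13.06, 12.98 and 13.24 on the controls and 13.59, 13.86 and 13.54 on the SetD8 arrays (0.57, adjusted p = 0.106). Psme2 read 13.61, 13.48 and 13.56 against 14.01, 13.98 and 13.88 (0.41, adjusted p = 0.121). The groups of both were apart and neither passed the threshold, but both did with an intensity trend (adjusted p = 0.0154 and 0.0104). At the main scaling the differences were 0.38 and 0.17, and the groups of both overlapped.

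Psmf1, an inhibitor of the core, read 10.90, 10.83 and 10.98 on the controls and 11.43, 11.28 and 11.29 on the SetD8 arrays (0.43, adjusted p = 0.12; 0.0276 with the trend), again apart. The shuttle receptor Rad23b read 10.41, 10.49 and 10.02 against 9.89, 9.81 and 9.65 (-0.52, adjusted p = 0.175). The assembly chaperone Psmg1 read 12.00, 12.07 and 11.88 against 11.67, 11.70 and 11.56 (-0.34, adjusted p = 0.201; 0.0496 with the trend). At these probes the SetD8 values of Rad23b and Psmg1 all lay below the control values. Another probe of each gene, well above background on all 6 arrays, was also lower but with overlap (Rad23b -0.22, Psmg1 -0.25). Neither gene was called without the trend or array weights. At the main scaling the differences of Psmf1, Rad23b and Psmg1 were 0.42, -0.77 and -0.52, and the groups of each overlapped. Nfe2l1 and Nfe2l2, transcription factors known to act on proteasome genes, stood at 0.02 and -0.05.

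**Figure D5:**
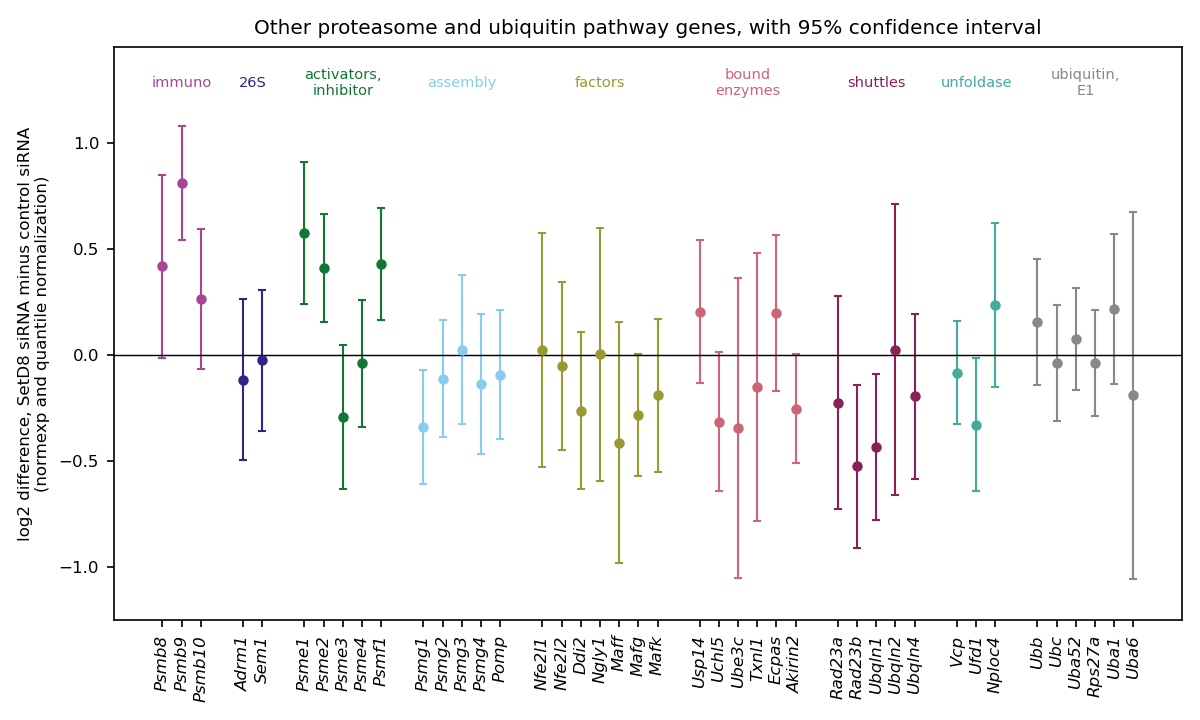
Log2 difference (SetD8 siRNA minus control siRNA, y axis) of the 42 tested pathway genes after normexp and quantile normalization, grouped by role, with 95% confidence intervals from 3 against 3 arrays. Psmb9 (0.81) has the largest difference of these genes and is the one past the adjusted threshold.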

How the data were processed

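Total RNA was labelled with Cy3 and hybridised to 1-colour Agilent arrays, per the labels. The authors deposited scanner output of Feature Extraction 10.7.3.1 with spot intensity values on a linear scale, per the file headers, and a value table whose intensities equalled the processed signals (within 0.006 for 100% of spots on each array). The submitters' processing notes name limma. Outlier-flagged spots were left out and spots of a probe averaged. The main scaling is log2 of the processed signal less the array's 75th percentile; the second is normexp (offset 50) on mean and background signals with quantile normalization. A probe was kept where every array of either group (or both) read it well above background; each gene is represented by its brightest kept probe, named through RefSeq by accession (26762 probes), symbol (3819) or synonym (639); 24461 probes were unnamed. Differences (SetD8 minus control, 14420 genes) were tested with limma 3.58.1 in R 4.3.3 (lmFit and eBayes, two-sided, 4 residual degrees of freedom, Benjamini-Hochberg over all genes, threshold 0.05); promoters were searched in Python 3.11.15. The fit was tested on simulated data with known changes, and estimates had little bias in both readings. At the 75th percentile scaling none of these changes passed the adjusted threshold, so the lack of calls there says little about these genes. The simulated noise was independent between genes. On the real arrays the subunit genes moved together with the array at that scaling, which the simulation did not include.

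Members and lists were chosen with earlier results of these data known. Values by array are given for the 3 genes of smallest p in each sub-complex, genes whose probes differ in sign, members that are not constitutive subunits, the immunoproteasome genes, any gene called, and the 6 pathway genes of smallest p. Other scalings, filters, summaries, moderation, weights, blocks and left-out arrays were tried. Probe coordinates are mm9 and promoters GRCm38.p6; exon annotation of mm9 was not used here.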

Additional observations from a re-analysis of the deposited data

How the results depend on the processing

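The precision is that of 3 arrays a group, with 4 residual degrees of freedom. At the 75th percentile scaling, members called were 20 with array weights (all lower, where 25.6% of all genes were called lower), whose estimation stopped before converging. Pathway genes called were 18 of 42 with those weights, where 16.5% of all genes were called higher and 25.6% lower. After normexp and quantile normalization 1 pathway gene was called, where 1.46% of all genes were called higher and 0.236% lower. Within slide 3 the median of the rings was 0.56 and of the base and lid 0.54. After quantile normalization, 2 members were called with an intensity trend in the moderation (Psma3 and Psmd12, both lower, with 2.22% of all genes). With array weights 8 members were called (7 lower and 1 higher, with 13.2% and 13.7% of all genes). Pathway genes called were 5 with the trend, where 4.32% of all genes were called higher and 2.22% lower. With array weights 16 pathway genes were called, where 13.7% of all genes were called higher and 13.2% lower. Pathway genes called were 0 with the replicate block, 0 with the slide as a block, 0 within slide 1, and 0 to 1 over the fits that left out an array. The median of the base and lid was -0.075 within slide 1. The cause of these changes was not tested.

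The Setd8 difference, not past the threshold at the 75th percentile scaling, passed it at -2.07 (quantile reading), -2.24 (normexp with the 75th percentile; also with the filter on all arrays), -2.10 (quantile of the processed signal), -2.11 (percentile over detected probes), -2.42 (array weights) and -1.93 (slide block). In the quantile reading it missed the threshold with the replicate block (-2.07, adjusted p = 0.139) and in 4 fits that left out an array; over all 6 of these it ranged from -2.18 to -2.0. Same-numbered arrays did not deviate together (correlations of 0.19, -0.25 and -0.19 in the quantile reading), so the numbers were not used as pairs; under the replicate block no member was called.

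Members called were 0 in every fit that left out an array, in both readings. Over these fits the medians ranged from -0.67 to 0.02 (rings) and -0.71 to 0.05 (base and lid) at the 75th percentile scaling, and from -0.11 to -0.06 and -0.17 to -0.08 in the quantile reading.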
